A study of Mus musculus with 2 samples.

Results

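The miR-148 family, which includes miR-152, consists of 3 microRNA (miRNA) genes, Mir148a, Mir148b and Mir152, which make miRNAs with one shared seed. They were chosen by name from the 1973 miRNA genes counted in small RNA libraries of mouse embryonic heart, and all 3 were found. The 2 libraries form 1 group, numbered as biological replicates 1 and 2, and come from hearts of B6NCrl embryos at embryonic day 14.5. The hearts were collected on 15 and 17 July 2014. The labels name no allele, treatment or control group, so each gene's level is described and no condition is tested. Each library is labelled as the heart of 1 pup, but its sex is given as a pool of males and females, so it is unclear whether animals were pooled. Any spread between the libraries includes the difference in collection day.

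A miRNA is cut from a hairpin transcript by Drosha and Dicer, and 1 strand of the cut duplex is loaded into an Argonaute protein. The seed, bases 2 to 8 of the loaded strand, pairs with sites in target mRNAs, mostly in their 3′ UTRs, and lowers the output of those mRNAs. The miR-148 family is known for repressing the DNA methyltransferase DNMT1 in human cells, and miR-148a for acting on Abca1, a gene of cholesterol efflux, in mouse liver. In adult tissues miR-148a is known as an abundant miRNA of liver and pancreas. Mir148b and Mir152 lie in Copz1 and Copz2, paralogous genes for the zeta subunit of the COPI coat of Golgi vesicles.

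The mature sequences of the 3p arm, which is regarded as the active strand of this family, are shown because they define the family and decide whether reads of the members can be told apart. Sequences are those of RefSeq for GRCm38.p6, in which all 3 genes were matched. Capitals mark the seed.
miR-148a-3p: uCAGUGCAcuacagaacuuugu
miR-148b-3p: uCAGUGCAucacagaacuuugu
miR-152-3p: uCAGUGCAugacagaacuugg
Among 1738 mature mouse miRNAs in the RefSeq table, the seed CAGUGCA occurred in these 3 alone. Counting positions from 1 at the 5′ end, miR-148a-3p differed from miR-148b-3p by 2 substitutions, C9U and U10C. Set against miR-152-3p, miR-148a-3p showed 3, C9U, U10G and U20G, over the 21 aligned bases. miR-148b-3p and miR-152-3p differed by C10G and U20G. All of these differences lay 3′ of the seed, and the longest run shared by any pair of 3p arms was 12 bases, between miR-148a and miR-148b.

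The 5p arms, which come from the other side of the same hairpins, were less alike when compared base by base without gaps. They are shown for comparison, again with bases 2 to 8 in capitals.
miR-148a-5p: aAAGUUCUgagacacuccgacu
miR-148b-5p: gAAGUUCUguuauacacucaggcu
miR-152-5p: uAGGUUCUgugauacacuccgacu
Base by base from the 5′ end, with no gaps, the 5p arm of miR-148a differed from that of miR-148b at 9 positions and from that of miR-152 at 10. Bases 2 to 8 of this arm were the same in miR-148a and miR-148b, whereas miR-152-5p carried A3G relative to both. The 5p arm of miR-148a has 22 bases and the others have 24, so its counts of differences depend on leaving out gaps. Its longest run shared with miR-152-5p was 11 bases, against 9 between their 3p arms. The run of miR-148b-5p with either of the others was 8 bases, shorter than in the 3p arms. The authors' counts are per gene, so reads of the 5p and 3p arms are summed in every value given here.

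The hairpins show both arms in place, with the mature sequences in capitals.
Mir148a: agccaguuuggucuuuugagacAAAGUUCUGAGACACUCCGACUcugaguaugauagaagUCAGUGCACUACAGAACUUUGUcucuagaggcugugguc
Mir148b: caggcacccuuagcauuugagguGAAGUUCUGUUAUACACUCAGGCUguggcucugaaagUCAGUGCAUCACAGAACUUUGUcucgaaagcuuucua
Mir152: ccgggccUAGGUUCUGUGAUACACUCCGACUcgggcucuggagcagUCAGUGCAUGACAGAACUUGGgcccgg
Compared on both strands with the 2201 other miRNA hairpins of GENCODE M21, the longest run that Mir148a or Mir148b shared with any was 15 bases, and this was with each other. For Mir152 it was 13 bases. None of the members shares a run of 20 or of 18 bases with another annotated hairpin. Reads mapping to several places, which made up 30.6% of replicate 1 and 30.1% of replicate 2, are counted apart from the genes. That loss touches genes with near-identical copies, and exact shared runs showed no such copy of these hairpins among annotated miRNAs. Matches with mismatches were not searched, and the mismatches allowed in mapping are not known. The 3p arms of miR-148a and miR-148b differ at only 2 of 22 bases. Whether reads were lost or swapped between these members was not tested. The rest of the genome was not searched.

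The genes lie on 3 chromosomes, in GRCm38 (the assembly of the authors' mm10 build). Mir148a (ENSMUSG00000065505.1) is on chromosome 6, bases 51269812 to 51269910 of the minus strand, and overlaps no other annotated gene. The nearest protein-coding gene, Nfe2l3, is 162760 bases away. Mir148b (ENSMUSG00000065560.1) is on chromosome 15, bases 103285125 to 103285221 of the plus strand. It lies in intron 1 of all 4 annotated Copz1 transcripts and on their strand. Mir152 (ENSMUSG00000065515.1), on chromosome 11, bases 96850393 to 96850465 of the plus strand, lies in intron 1 of Copz2 on the same strand. There it sits in an intron of 3 of the 5 annotated transcripts and overlaps an exon of 0. It starts 523 bases after the start of Copz2, while Mir148b starts 12411 bases after that of Copz1. No member has another annotated miRNA close by: the nearest ones are 351722, 65234 and 213303 bases from Mir148a, Mir148b and Mir152. Host mRNAs were not measured in these libraries.

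Sequencing gave 8150499 reads in replicate 1, with 4327424 falling on miRNA genes in the strand used, and 7269505 reads in replicate 2, with 3839984 on miRNA genes. Levels are given as CPM, the count scaled to a common total of those assigned reads. Each read comes from a small RNA and not from a piece of a longer transcript, so CPM needs no scaling by length. Reads are not counts of molecules, however, and ligation and amplification can favour some sequences. In the heart muscle list used to check the tissue label, all 3 of Mir208a, Mir208b and Mir499 were detected, with a sum of 75752 CPM in replicate 1 and of 79353 in replicate 2.

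All 3 members were detected, and Mir148a was by far the most abundant. Detection means at least 10 counts in each library, which 337 of the 1973 genes (17.1%) met. Mir148a had 6212 counts in replicate 1 and 5517 in replicate 2, or 1435 and 1437 CPM. Its 95% counting intervals (exact Poisson) ran from 1400 to 1472 CPM and from 1399 to 1475 CPM. On the CPM scale the libraries therefore differed by less than counting error in this gene, whose mean was 1436 ± 0.869 CPM (SD, n = 2). That closeness depends on the scaling, as given below with the ratios between replicates. All 3 members had a mean of at least 100 CPM, as 170 genes (8.62%) did. Mir148a was the only member above a mean of 1000 CPM, a level that 78 genes (3.95%) reached.

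Mir148b, the Copz1 member, had 1202 counts in replicate 1 and 1147 in replicate 2, or 278 and 299 CPM. The intervals, 262 to 294 CPM and 282 to 316 CPM, overlapped. Its mean was 288 ± 14.8 CPM (SD, n = 2).

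Mir152, the Copz2 member, was the lowest and the least even. It had 739 counts in replicate 1 and 887 in replicate 2, or 171 and 231 CPM, and its intervals of 159 to 184 CPM and 216 to 247 CPM did not overlap. The mean was 201 ± 42.6 CPM (SD, n = 2), a coefficient of variation of 21.2%, against 5.14% for Mir148b and 0.0605% for Mir148a. With 2 libraries such an SD is itself poorly known. These intervals take in no more than counting error. Reads that carry no molecular identifiers are not independent molecules, so the intervals may be too narrow even for that. The gap between the intervals of Mir152 may therefore be overstated.

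The order Mir148a, Mir148b, Mir152 held in both libraries, and the ranges of neighbouring members did not overlap. Mir148b reached 278 CPM at its lowest, above the 231 CPM that Mir152 reached at its highest. Reads on the opposite strand of the genes were all but lacking, with 1 read facing Mir152 in replicate 1 and 0 for every other member and library.

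**Figure D1:**
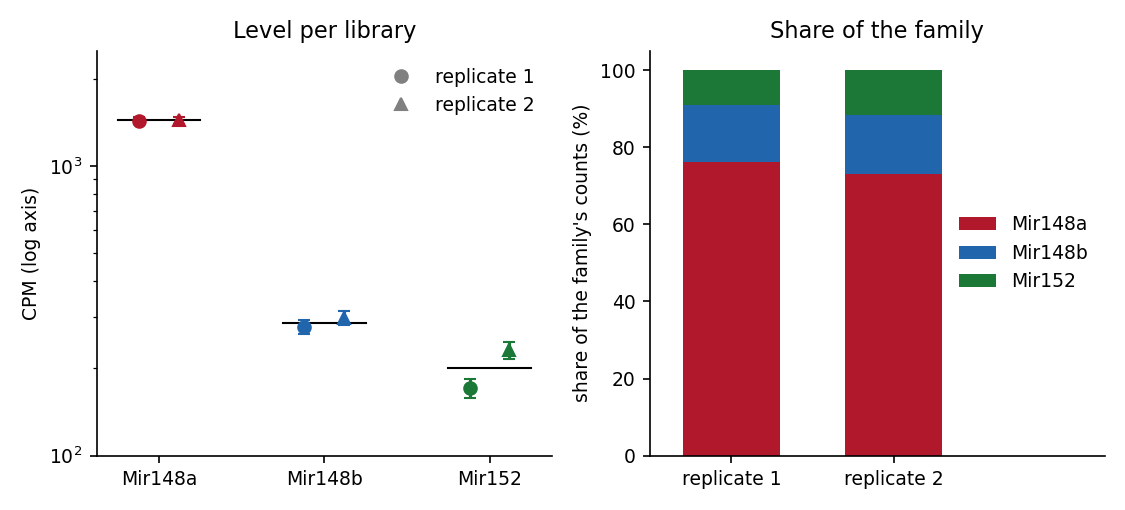
Left, CPM (log axis) of each gene in replicate 1 (circles) and replicate 2 (triangles), with exact 95% Poisson intervals as bars and the mean as a line. Right, share of the family's counts per library. Mir148a sits near 1436 CPM in both libraries, well above Mir148b and Mir152, and its share is 76.2% in replicate 1 and 73.1% in replicate 2.

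Within the family, Mir148a held 76.2% of the counts in replicate 1 (exact binomial 95% interval 75.3% to 77.1%) and 73.1% in replicate 2 (72.0% to 74.1%). Mir148b held 14.7% and 15.2% in the same order of libraries, and Mir152 held 9.06% and 11.7%. Mir148a exceeded Mir148b 5.17-fold in replicate 1 (exact interval 4.86 to 5.50) and 4.81-fold in replicate 2 (4.51 to 5.13), a mean of 4.99 ± 0.253 (SD, n = 2). Mir148a exceeded Mir152 8.41-fold in replicate 1 (7.79 to 9.08) and 6.22-fold in replicate 2 (5.79 to 6.68). The first ratio agreed between libraries within counting error and the second did not. Of the members hosted in coatomer genes, Mir148b exceeded Mir152 1.63-fold in replicate 1 (1.48 to 1.79) and 1.29-fold in replicate 2 (1.18 to 1.41). These ratios of counts carry no scaling and do not depend on how the libraries were normalized.

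In sum the family had 8153 counts in replicate 1 and 7551 in replicate 2, or 1884 and 1966 CPM, a mean of 1925 ± 58.3 CPM (SD, n = 2). It thus took 0.188% of assigned reads in replicate 1 (exact binomial interval 0.184% to 0.193%) and 0.197% in replicate 2 (0.192% to 0.201%).

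Ranked by mean CPM over all genes, Mir148a was number 70, Mir148b number 123 and Mir152 number 140. Between Mir148a and Mir148b lay 52 other genes, and between Mir148b and Mir152 lay 16. The genes closest to Mir148a in level were Mir27b, just above it at 1242 CPM in replicate 1 and 1840 CPM in replicate 2, and Mir145a, a miRNA of smooth muscle, just below it at 1222 and 1454 CPM. Both ranges overlapped that of Mir148a, so this order does not exceed the spread between libraries. Mir15b (1460 and 1722 CPM), the next gene above, and Mir28a (1235 and 1367 CPM), the next below, did not overlap it.

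Around Mir148b, the ranges of Mir215 (332 CPM in replicate 1 and 273 CPM in replicate 2), Mir24-2 (254 and 290 CPM) and Mir224 (248 and 279 CPM) overlapped its own. Mir339, at 307 ± 8.54 CPM (SD, n = 2), lay above it in both libraries. Around Mir152, all 4 neighbours overlapped it: Mir30b (206 and 221 CPM), Mir700 (177 and 226 CPM), Mir669l (208 and 193 CPM) and Mir132 (213 and 181 CPM). Of the genes in these comparisons Mir27b, Mir28a, Mir24-2 and Mir669l share 20 bases with another hairpin and may be under-counted. The ranks of the family relative to them are uncertain to that extent.

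**Figure D2:**
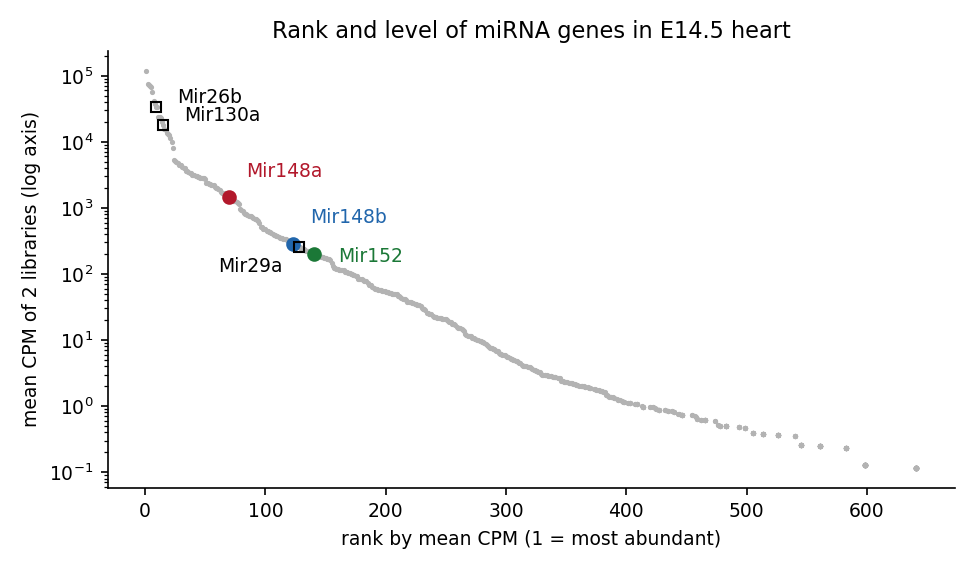
Mean CPM over the 2 libraries (log axis) against rank for every gene with at least 1 count. Filled circles mark the family and open squares mark Mir26b, Mir130a and Mir29a, the leading genes of the miR-26, miR-130 and miR-29 families. Mir148a lies at rank 70, and Mir148b and Mir152 lie on either side of Mir29a at ranks 123 and 140.

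In CPM the 2 libraries differed little in Mir148a and Mir148b and more in Mir152. The ratio of CPM in replicate 2 to replicate 1 was 1.00 for Mir148a (exact interval 0.965 to 1.04) and 1.08 for Mir148b (0.991 to 1.17), both with intervals that include 1. For Mir152 it was 1.35 (1.23 to 1.49). Of the 170 genes averaging 100 CPM or more, 32 (18.8%) were over 1.2-fold higher in replicate 2, Mir152 among them, and 22 (12.9%) were over 1.2-fold lower. The median ratio of these 170 genes was 1.04, and 13 had a larger ratio than Mir152. In absolute log2 ratio 21 of them exceeded Mir152, while all 169 others exceeded Mir148a. Scaled by TMM or by the median of ratios, the ratio of Mir152 was 1.29 or 1.25. That of Mir148a lay on the other side of 1 at 0.957 or 0.925. Both of these Mir148a values lie below its CPM interval of 0.965 to 1.04, so its agreement between libraries depends on the scaling.

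**Figure D3:**
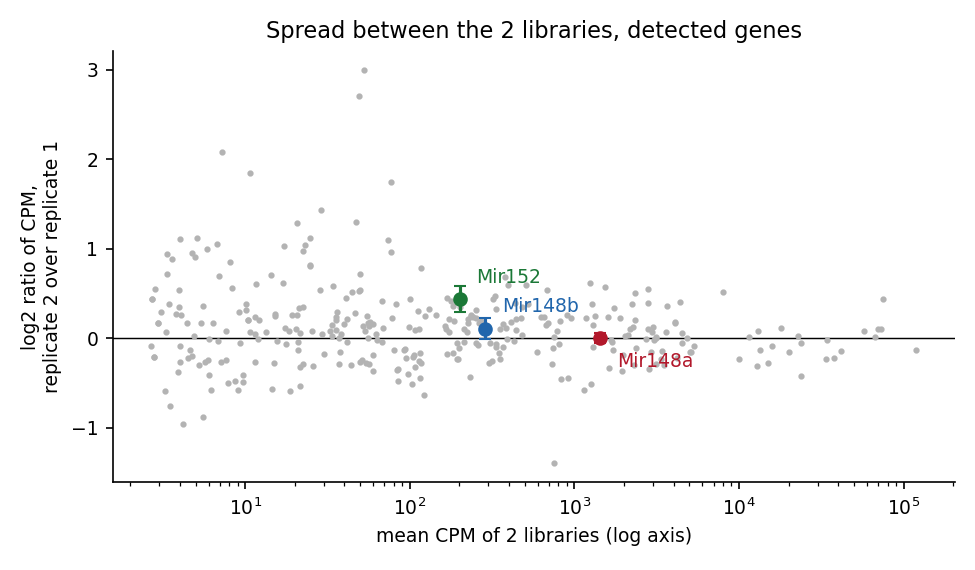
Log2 ratio of CPM, replicate 2 over replicate 1, against mean CPM (log axis) for the 337 detected genes (grey points). Coloured points are the family with exact 95% intervals from counting error. Mir148a and Mir148b have intervals that include 0 (equal levels), and the interval of Mir152 lies above 0.

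Markers of other cells also differed between the libraries. Replicate 2 had more of the epithelial list (879 CPM, against 445 CPM in replicate 1). All 6 of its members were detected, led by Mir429 and Mir200b. Each was higher in replicate 2, from 1.61-fold for Mir429 and 1.73-fold for Mir200b up to 7.95-fold for Mir205 (11.8 CPM in replicate 1 and 93.8 CPM in replicate 2). Replicate 2 also had more of the smooth muscle pair Mir143 and Mir145a (87098 CPM, against 64494 CPM). This came mostly from Mir143, with 85644 CPM in replicate 2 and 63272 CPM in replicate 1, while Mir145a had 1454 and 1222 CPM in the same order. The red blood cell list of Mir451a and Mir144 was lower in replicate 2 (489 CPM, against 1184 CPM). Mir451a, which gave most of this sum, shares 20 bases with another hairpin and may be under-counted. The part of any of these cells in the level of Mir152 was not tested. In whole tissue, fewer cells of a type and less RNA per cell cannot be told apart.

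Since miR-148a is abundant in adult liver and pancreas, markers of these organs are given beside it. All 5 liver miRNAs were detected, with a sum of 518 CPM in replicate 1 and of 471 in replicate 2. Of these Mir215 gave 332 and 273 CPM, Mir192 gave 49.9 and 59.4 CPM, and Mir122, the defining miRNA of hepatocytes, gave 38.4 and 44.5 CPM. Summed, the family lay 3.64-fold above this list in replicate 1 and 4.18-fold above it in replicate 2, although 2 of the 5, Mir194-1 and Mir194-2, share 20 bases with another hairpin, so that the liver sum may be too low and these folds too high. Of 4 pancreas miRNAs only Mir375 was detected, at 11.3 and 23.2 CPM, and Mir216a, Mir216b and Mir217 had at most 2 counts in a library. The 3 measured markers of white blood cells came to 493 CPM in replicate 1, and in replicate 2 to 405 CPM, led by Mir223 and Mir155. The heart muscle, endothelial and smooth muscle lists were each over 34-fold higher than the family in both libraries. In the endothelial list only Mir126a was measured, and it shares 20 bases with another hairpin and may be under-counted. Which cells of the heart made the family's reads was not measured.

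The miR-130 family, which includes miR-301, was compared because its seed overlaps that of miR-148, shifted by 1 base. The 3p sequences of miR-130a, miR-130b and miR-301a are printed with bases 2 to 8 in capitals. That of miR-301b was missing from the RefSeq sequences used, so its seed was not compared here.
miR-130a-3p: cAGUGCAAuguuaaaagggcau
miR-130b-3p: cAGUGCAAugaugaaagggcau
miR-301a-3p: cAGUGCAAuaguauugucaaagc
The run AGUGCA starts at base 3 in the members of the miR-148 family and at base 2 in these miRNAs, so that the seeds themselves differ. The miR-148 family summed to 1884 CPM in replicate 1 and to 1966 in replicate 2. The 4 measured genes of the miR-130 list came to 22296 and 23238 CPM, which is 11.8 times as much in each library. Mir130c, Mir6341 and Mir6389, which also have the seed AGUGCAA, are not on this list and were not detected. Mir130a (17309 and 18694 CPM) led the miR-130 family, ahead of Mir130b (3585 and 3241 CPM), Mir301 (1334 and 1251 CPM) and Mir301b (67.7 and 52.3 CPM). Mir148a thus lay above Mir301 in both libraries and below Mir130b. Mir454 and Mir721 were not analysed here.

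The miR-29 family, known for repressing the DNA methyltransferases DNMT3A and DNMT3B in human cells, was less abundant than miR-148. The miR-148 sum was 6.00-fold higher than that of the 4 miR-29 genes in replicate 1 (1884 CPM, against 314 CPM) and 4.94-fold higher in replicate 2 (1966 CPM, against 398 CPM). Mir29a had 226 and 281 CPM, close to Mir152 and Mir148b, and Mir29c had 85.0 and 115 CPM. Mir29b-1 (9 and 5 counts) and Mir29b-2 (4 counts in each) were not detected. As 3 of the 4 genes, all but Mir29a, share 20 bases with another hairpin, the miR-29 sum may be too low. The miR-148 sum was far below that of the miR-26 family, another family of 3 genes, which came to 34318 CPM in replicate 1 and to 33773 in replicate 2. Reads of the miR-26 family were nearly all from Mir26b (34269 and 33728 CPM), with Mir26a-2 at 40.7 and 33.3 CPM and Mir26a-1 at 9.01 and 11.2 CPM. Both Mir26a genes share 20 bases with another hairpin and are uncertain.

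The hold of Mir148a on its family was set beside other groups of genes that share a seed on at least 1 arm. Mir148a held 74.6% ± 2.21 (SD, n = 2) of its family, against a median of 90.6% for the most abundant gene of 32 such groups, its own included. A group needed at least 2 measured genes and a summed mean of at least 1000 CPM. The leading gene held a larger share than Mir148a did in 22 of the groups. Groups can share genes, and Mir26b and Mir18 each lead more than a single group. The median and this count are therefore not taken over separate genes. Many of the 32 pair an abundant gene with one hardly detected or with near-identical copies. In the 9 groups where every gene was detected and none shares 20 bases with another hairpin, a subset chosen after the values were seen, the median was 84.2%. These groups are not all separate: Mir18 leads those with Mir7069 (99.9%) and with Mir18b (99.7%). Mir301 with Mir301b (95.6%) is grouped by a seed other than AGUGCAA, although both were counted with the miR-130 family above. Of these 9, 6 had a higher share than the miR-148 family, those led by Mir18 and Mir301 among them. The groups closest to the miR-148 family were Mir501 with Mir500, and Mir99a with Mir99b and Mir100. Mir501 held 81.0% in replicate 1 and 72.8% in replicate 2, and Mir99a held 73.6% and 75.1%. Both ranges overlap that of the family (73.1% to 76.2%), and no test was made.

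**Figure D4:**
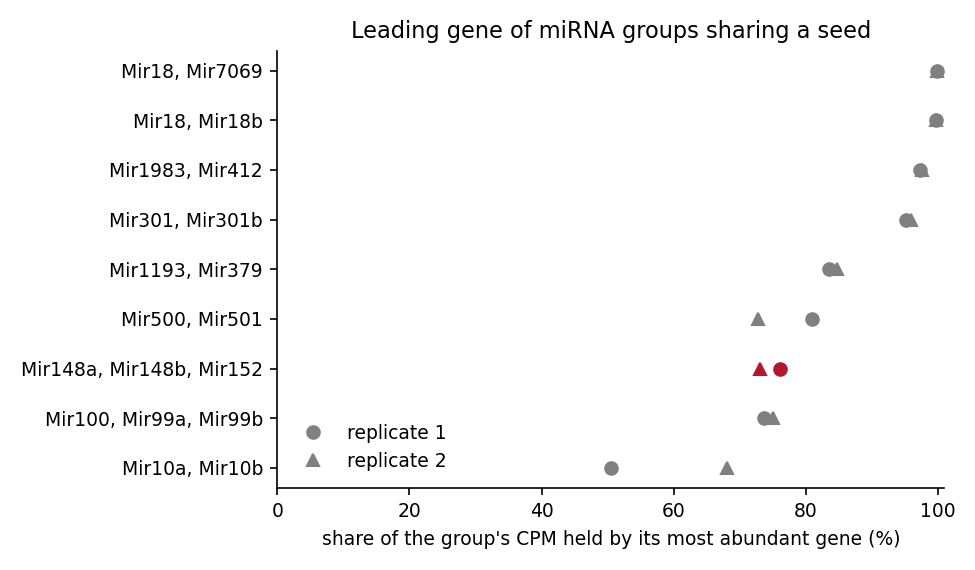
Share of a group's CPM held by its most abundant gene in replicate 1 (circles) and replicate 2 (triangles), for the 9 groups sharing a seed in which every gene was detected and none shares 20 bases with another hairpin. The miR-148 family (red), at 76.2% and 73.1%, lies between Mir500 with Mir501 and the Mir99a group. Groups can share a gene, as those led by Mir18 do.

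The shared seed implies a shared target site, whose letters in DNA are TGCACTG, or TGCACTGA with an A after it. On the sense strand, 12.7% of the longest annotated 3′ UTRs of 21022 protein-coding genes held the shorter site and 3.59% held the longer one, which contains it. The sites of 3 genes known as targets of this family are printed because each holds the longer site, shown in capitals. They were picked by name for being known targets, and no mRNA was measured here.
Dnmt1: cagagccccacgTGCACTGAtg
Gadd45a: actgaaccaaatTGCACTGAag
Bcl2l11: tcctttacgtttTGCACTGAtg
In Dnmt1, on chromosome 9, the site starts at base 23 of a 3′ UTR of 312 bases. Of 1693 UTRs of similar length (80% to 120% of it), 1.06% held the longer site. In Gadd45a, a gene of the response to DNA damage, it starts at base 32 of 563, with 2.56% of similar UTRs. In Bcl2l11, which encodes the pro-apoptotic protein Bim, it starts at base 4080 of 4218, with 8.59%. Bach2 also held the longer site, as did 11.0% of UTRs of similar length, and Abca1 held 2 of the shorter and 0 of the longer. For the shorter site the shares among UTRs of similar length were 41.0% for Bach2, 32.4% for Bcl2l11, 24.8% for Abca1, 6.62% for Gadd45a and 3.13% for Dnmt1. As the 5 genes were picked as known targets of this seed, their holding a site is no finding. Because the 3 members carry the same seed, these letters do not tell which of them could pair there.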

How the data were processed

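The authors deposited 1 table of whole-number read counts per library, for 1973 miRNA genes and 4 lines of reads assigned to no gene, which were left out of totals. The build is mm10 and the annotation GENCODE M4, per the file descriptions. Aligner and counter: not given in the sources used here. The counts were not normalized, judging from the values. Of the strand-specific columns, the one holding more reads was used. Gene names came from GENCODE M21 (1894 identifiers named), mature sequences from RefSeq, and hairpin comparisons and 3′ UTRs from GENCODE M21 transcripts.

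Counts were scaled to CPM, with a pseudocount of 1 CPM for log2 ratios in the alternatives. Intervals (95%) were exact Poisson or binomial. A level of 3 counts, the limit that a count of 0 allows, is 0.693 CPM in replicate 1 and 0.781 CPM in replicate 2. Named genes were the 3 members, the 2 genes next above and below each in mean CPM, the miR-29, miR-130 with miR-301, and miR-26 lists, and the 2 leading members of each marker list. Other marker genes, the genes of the seed groups and the target genes were chosen after values were seen. The members and lists were chosen with earlier results of these data known. Nothing in the labels shows that the libraries came from separate litters. Tools were Python 3.11.15, numpy 2.4.6, pandas 2.3.3, scipy 1.17.1, matplotlib 3.10.9, R 4.3.3, edgeR 4.0.16 (TMM) and DESeq2 1.42.0 (median of ratios). Alternatives were these scalings, the unstranded column, a total without the most abundant gene or over detected genes, other pseudocounts and count minimums, opposite-strand reads added, and each replicate left out.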

Additional observations from a re-analysis of the deposited data

How the results depend on the processing

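Of 71 values recomputed for 14 results under 13 alternative settings, 57 stayed close to the reported value, 10 moved further and 4 changed sign. Close means within 1 SD between libraries for levels, ranks and ratios between members, within the counting interval for ratios between replicates, and within 1.5 times for the number of detected genes. With 2 libraries, a mean with 1 replicate left out always lies within 1 SD, so all those values count as close by construction. Ratios between members carry no scaling, so totals over detected genes could not move them. The number of close values therefore overstates how stable the results are. With the unstranded column, Mir148a was 1369 CPM, the family summed to 1836 CPM, and Mir148a, Mir148b and Mir152 ranked 74, 132 and 149. With a total that leaves out the most abundant gene, Mir148a was 1631 CPM, Mir148b 327 CPM and the family 2187 CPM. Median-of-ratios scaling put Mir148a at 1437 CPM, a move larger than its SD only because that SD is 0.869 CPM. The log2 ratio of replicate 2 to replicate 1 of Mir148a changed sign under TMM (-0.064), the median of ratios (-0.11) and the total without the most abundant gene (-0.016), and that of Mir148b under the median of ratios (-0.0088). These scalings move every gene's log2 ratio alike, by -0.07 under TMM and -0.11 under the median of ratios. Mir152 stayed higher in replicate 2 under every scaling and pseudocount tried. A minimum of 1, 5 or 20 counts in each library in place of 10 gave 542, 380 or 298 detected genes, against 337. With 1 replicate left out, the ratio of Mir148a to Mir152 ranged from 6.22 to 8.41. No paired analysis was possible because the series has 1 group. With 2 libraries of 1 group, no setting gives a test between conditions.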
